A study of Mus musculus with 7 samples.

Results

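The genes examined were 9 genes that encode AP-1 and BATF family transcription factors: Fos, Fosb, Fosl2, Jun, Junb, Jund, Batf, Batf3 and Maf. Their regulatory surroundings were read from the regions called for Runx3 and for H3K4me1 in resting CD8-positive T cells (CD8-TC) of mouse spleen. A region belonged to a gene when its midpoint lay in the gene body or within 20 kb of it, on the mm9 build. By this rule the 9 genes held 2 of 4934 Runx3-bound regions and 62 of 76705 H3K4me1-marked regions, 64 of 81639 regions in all. No region belonged to more than 1 of the 9 genes.

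AP-1 is a dimer of leucine zipper proteins. Fos family proteins (Fos, Fosb, Fosl2) bind DNA only as partners of Jun family proteins (Jun, Junb, Jund), whereas Jun proteins can also pair with each other. Batf and Batf3 lack a transactivation domain of the Fos kind, pair with Jun proteins and act with interferon regulatory factors in lymphocytes and dendritic cells. Maf (c-Maf) is a larger relative that recognises an extended element and controls cytokine genes in T cells. Several of these genes are induced within minutes of T cell receptor signalling, and the cells measured here had not been activated. Runx3 is a Runt domain factor needed for the CD8 lineage and for cytotoxic T cell function. H3K4me1, histone H3 monomethylated at lysine 4, marks enhancers, both active and primed, and the borders of promoters.

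The cells came from the spleens of 18 wild-type ICR mice and were pooled. They were taken on anti-CD8 magnetic beads, at over 95% purity per the labels, and received no activating treatment in this series. All groups shared this source, and the labels give neither age nor sex of the mice. Runx3 was precipitated with a polyclonal antiserum in 2 repeats (3 libraries), H3K4me1 with a monoclonal antibody (2 libraries), and non-immune serum (NIS) served as control (2 libraries). Regions had been called once per antibody on joined repeats against joined NIS. Each list gives positions without a height, a read count or a value per library. Hence the values below have no replicate error, the depth behind each region is unknown, and no test across samples could be made. Shares over regions or genes carry 95% Wilson intervals, which cover counting error only.

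Runx3 occupied the start of 2 of the 9 genes, Batf and Jund, and no Runx3-bound region lay within 20 kb of the other 7. H3K4me1 was called at all 9 genes, but over very different lengths, from 2.31 kb at Maf to 18.7 kb at Junb. The 2 of 9 genes with a Runx3-bound region (22.2%, interval 6.32 to 54.7%) stood beside 19.8% of 22350 protein-coding genes under the same rule. Among the 13896 genes whose window was no longer than the longest of the 9, the share was 15.7%. Thus the number of Runx3-bound genes was near the background. Both regions had their midpoint within 1 kb of a transcription start site (TSS) of their own gene, as was so for 4.59% of protein-coding genes.

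The Batf region spanned chr12:87027187-87028086 and was 900 bp wide. Of all Runx3-bound regions, 60.01% were as wide or narrower. Its midpoint lay 17 bp after the Batf TSS, in the annotated 5′ UTR. The region held 4 RUNX motifs, counted as TGTGGT or TGTGGC or TGCGGT or TGCGGC on either strand. By their centres, a pair lay 209 and 95 bp before the TSS, 1 ended on the first base of the transcript, and 1 lay 465 bp after the TSS in the first intron. The stretch before the TSS is shown because it holds a pair of these motifs, in capitals. It is the 300 bp at chr12:87027319-87027618 of mm9, plus strand.

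Batf upstream: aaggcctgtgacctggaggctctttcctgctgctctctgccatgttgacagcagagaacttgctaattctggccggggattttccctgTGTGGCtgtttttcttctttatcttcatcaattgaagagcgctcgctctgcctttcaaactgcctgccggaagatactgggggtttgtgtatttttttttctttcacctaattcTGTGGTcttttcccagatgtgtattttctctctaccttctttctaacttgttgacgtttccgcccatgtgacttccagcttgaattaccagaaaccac

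The other RUNX motifs of the Batf region are shown with their flanks on the plus strand, the first at chr12:87027602-87027631, where the capitals are the reverse complement of TGTGGT and end on the first base of the transcript, and the next at chr12:87028069-87028098.
Batf start: gaattaccagaaACCACAagagagggcctg
Batf intron: gactctggaccgTGTGGTgtttgctataca

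Upstream windows of 300 bp with at least 2 RUNX motifs were found at 11.5% of protein-coding genes, and Batf was the only 1 of the 9 genes with as many. The Batf region also held 7 ETS motifs (AGGAAA or AGGAAG or CGGAAA or CGGAAG on either strand). It held no AP-1 motif (TGACTCA, reverse complement TGAGTCA) and no CRE (TGACGTCA), the related element with 1 more central base. H3K4me1 flanked the Batf TSS. The marked region upstream ended 133 bp before the Runx3 midpoint, and the next began 371 bp after it. The unmarked gap between them was 503 bp and contained the TSS and 2 of the 4 RUNX motifs. In all, 44.1% of the Runx3-bound region was marked, 317 bp at its upstream end and 80 bp at its downstream end.

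The Jund region spanned chr8:73222069-73223079 and was 1011 bp wide, with 81.8% of Runx3-bound regions as wide or narrower. Jund has annotated TSSs 1219 bp apart, and the midpoint lay between them, 936 bp after the first and 283 bp before the second, in the annotated 5′ UTR. The region held a single RUNX motif, 143 bp upstream of its midpoint, and a CRE 64 bp downstream of it. The sites are printed on the plus strand, the first at chr8:73222416-73222445 with the reverse complement of TGTGGC in capitals, the next at chr8:73222623-73222652 with the CRE in capitals.
Jund RUNX: tccacacatcacGCCACAgaagtgccagag
Jund CRE: ccccacccccaTGACGTCAacccacaatgc

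A CRE lay in the central 200 bp of 0.872% of all Runx3-bound regions and in 0.152% of windows of the same length 5 kb away. The Jund region had a GC content of 64.7% with 81 CpG dinucleotides, compared with 54.8% and 24 in the Batf region. It also held 3 ETS motifs and no AP-1 motif. The wide H3K4me1-marked region that covers the first Jund TSS ended 43 bp before the Runx3 midpoint. It overlapped 463 bp of the Runx3-bound region (45.8%). The following 2143 bp, which contain the CRE and the second TSS, were unmarked.

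**Figure D1:**
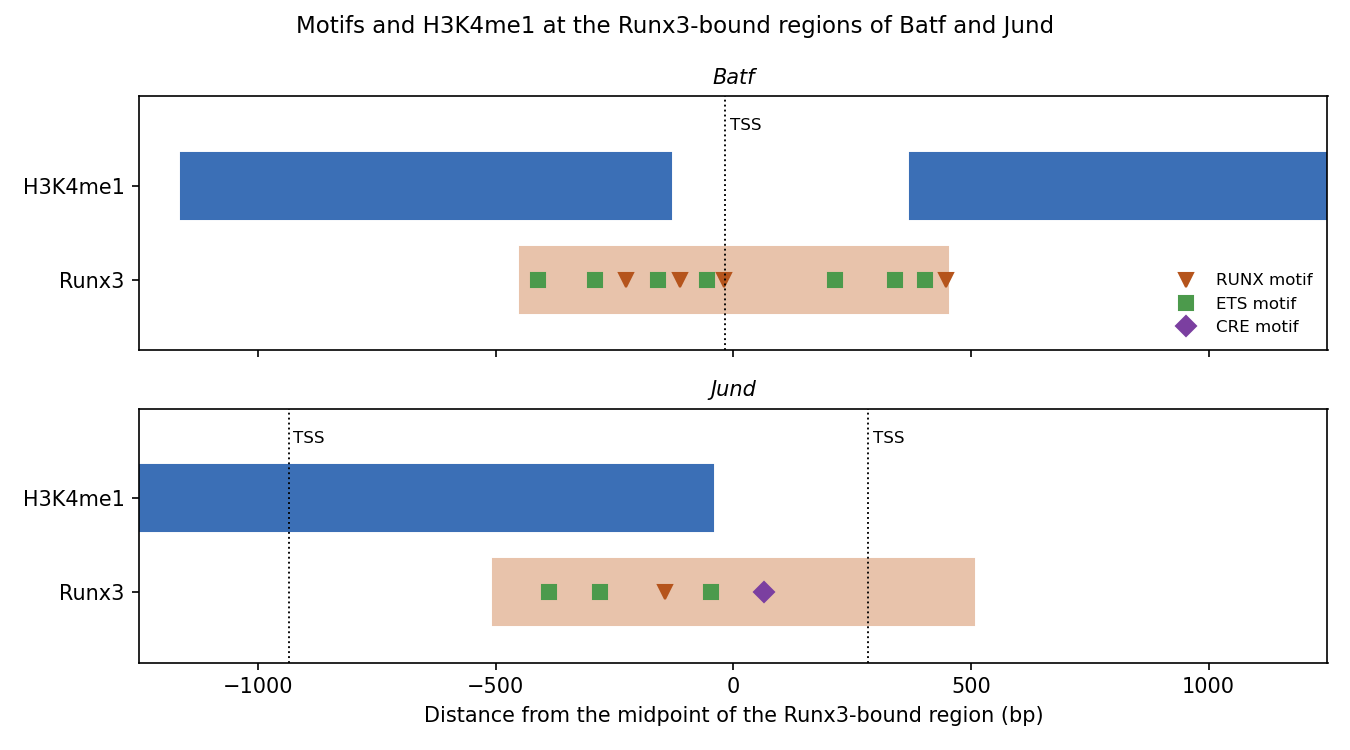
Position of RUNX, ETS and CRE motifs (symbols) within the Runx3-bound regions (orange bars) of Batf and Jund and of H3K4me1-marked regions (blue bars), in bp from the Runx3 midpoint. Dotted lines are annotated TSSs. Batf has 4 RUNX motifs and Jund 1, and in each gene the Runx3 midpoint lies in a stretch without H3K4me1.

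Neither region was far from a TSS, whereas 20.7% of all Runx3-bound regions lay within 1 kb of one and 63.9% more than 5 kb away. Their median width was 955.5 bp, beside 851 bp over all. Both Runx3-bound regions touched H3K4me1 at their edges with an unmarked midpoint. Over all Runx3-bound regions, 78.8% overlapped H3K4me1. Within 1 kb of a TSS there were 1022 Runx3-bound regions, of which 905 overlapped it, 426 (41.7%) had an unmarked midpoint and 135 (13.2%) were marked on both sides of an unmarked midpoint, as at Batf. In the central 200 bp a RUNX motif was present in 1 of the 2 regions, that of Batf, beside 66.0% of all Runx3-bound regions and 27.7% of windows 5 kb away. In the whole region a RUNX motif was present in 2 of 2, beside 88.8% of all. An ETS motif was present in the central 200 bp of both, beside 63.8%. An AP-1 motif was present in neither, and in the central 200 bp of 4.58% of all Runx3-bound regions.

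The nearest Runx3-bound midpoint lay 17 bp from the start of Batf and 0.936 kb from that of Jund. It lay 26.7 kb from Fos, 32.1 kb from Fosl2, 43.8 kb from Fosb, 131.7 kb from Junb, 147.7 kb from Jun, 307.5 kb from Maf and 323.0 kb from Batf3. The median over protein-coding genes was 148.6 kb. The 3 Fos family genes thus had Runx3-bound regions outside the 20 kb margin but within 50 kb, whereas none of Jun, Junb, Batf3 and Maf had one within 100 kb. With a margin of 50 kb the counts rose to 6 regions at 5 of the 9 genes, beside 30.8% of protein-coding genes. With 100 kb they were 7 regions at the same number of genes, beside 44.1%.

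**Figure D2:**
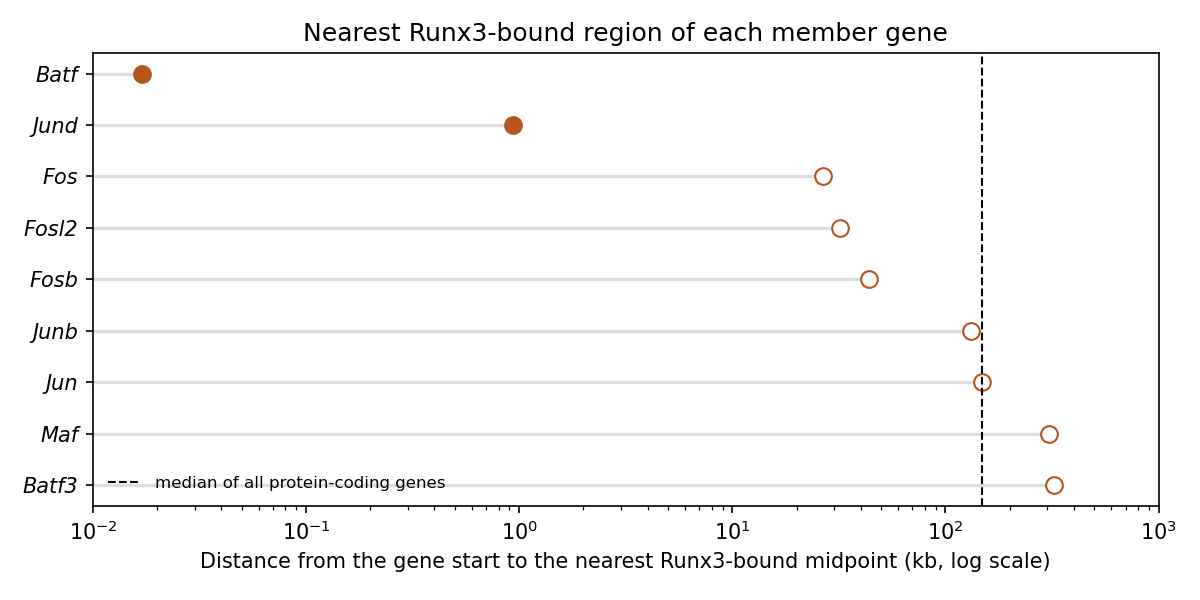
Distance in kb (log scale) from each gene start to the nearest Runx3-bound midpoint. Filled points are regions within the 20 kb margin (Batf, Jund), open points regions outside it, and the dashed line is the median of 148.6 kb over all protein-coding genes.

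Upstream of Fos, the immediate early gene whose protein is the prototypic Jun partner, a pair of Runx3-bound regions lay in intergenic sequence. The nearer, chr12:86787597-86788778, was 1182 bp wide with its midpoint 26.7 kb before the TSS, and the farther, chr12:86785298-86786247, was 950 bp wide and 29.1 kb before it. Each held 4 RUNX motifs and overlapped H3K4me1, and for both the nearest protein-coding TSS was that of Fos. Their central 200 bp are shown on the plus strand (chr12:86788087-86788286 and chr12:86785672-86785871), with RUNX motifs in capitals, as the regions nearest to the margin.
Fos 26.7 kb upstream: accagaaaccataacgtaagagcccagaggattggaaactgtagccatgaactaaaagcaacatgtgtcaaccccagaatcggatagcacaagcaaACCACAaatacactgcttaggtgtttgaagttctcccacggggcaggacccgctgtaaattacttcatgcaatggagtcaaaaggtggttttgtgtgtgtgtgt
Fos 29.1 kb upstream: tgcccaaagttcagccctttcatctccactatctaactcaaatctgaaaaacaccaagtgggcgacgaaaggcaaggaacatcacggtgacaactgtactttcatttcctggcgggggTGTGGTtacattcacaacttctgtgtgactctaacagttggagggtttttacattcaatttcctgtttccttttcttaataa

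The region nearest to Fosl2, chr5:32406308-32407252, lay 32.1 kb upstream in intergenic sequence and was marked by H3K4me1. It had 3 RUNX motifs and was the only nearest region of the 9 genes with an AP-1 motif. Its nearest protein-coding TSS was that of the predicted gene Gm10463, at 28.8 kb. The region nearest to Fosb, chr7:19851223-19852021, lay in an intron of Vasp, which encodes an actin regulator, 36.4 kb beyond the end of Fosb. The regions nearest to Junb and Batf3 were closer to other genes, at 0.125 kb from the TSS of Calr for Junb and 24.3 kb from that of Ppp2r5a for Batf3. For Jun and Maf the nearest region was intergenic, and no other protein-coding TSS was closer.

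H3K4me1 was then compared among the 9 genes. Each held between 4 and 12 marked regions, with a median of 6 beside 4 over protein-coding genes. At least 1 marked region was present at 73.6% and at least 4 at 51.4% of protein-coding genes. The marked share of the gene body with its margins had a median of 18.9% over the 9 genes, with a range of 3.56 to 44.7%. Over protein-coding genes it was 5.75%, with quartiles of 0 and 14.3%. The median of the 9 depended on the margin, from 30.8% in the gene bodies alone to 12.8% with 50 kb, beside 4.13 and 5.96% over protein-coding genes. Junb, Fosb, Fos, Jund, Batf3 and Batf lay in that order above the upper quartile of protein-coding genes, with Batf closest to it at 15.1%. Jun, Fosl2 and Maf were near or below the median gene.

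**Figure D3:**
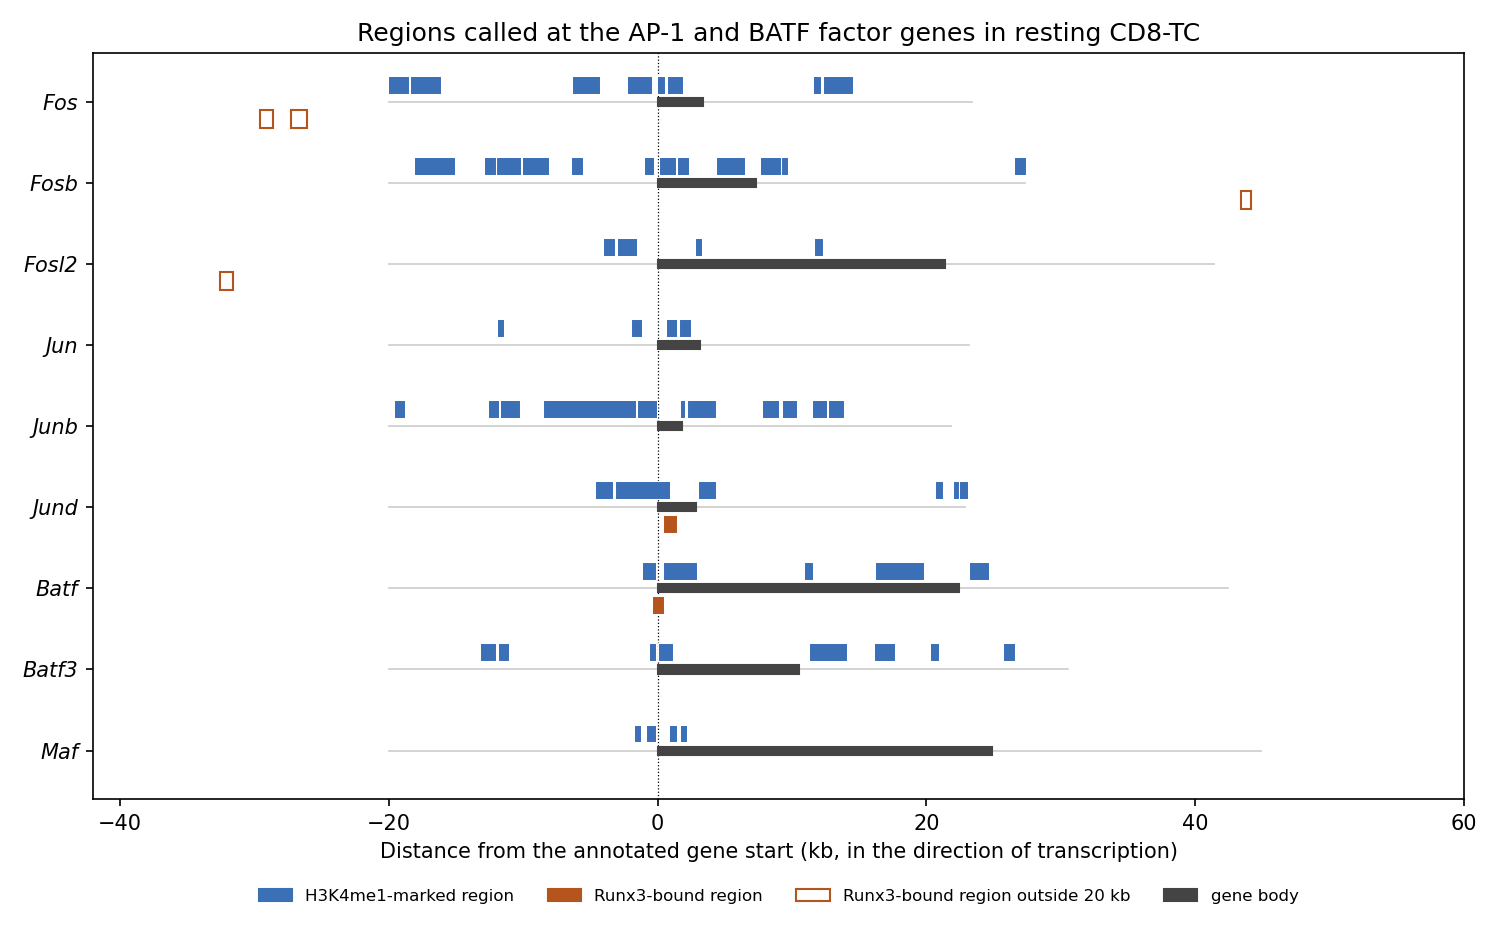
Map of H3K4me1-marked (blue) and Runx3-bound (orange) regions at the 9 genes, in kb from the gene start along the direction of transcription. Grey lines are the gene body (dark) with 20 kb on each side, and open boxes are Runx3-bound regions outside that margin. Marked regions spread over both sides of Fos, Fosb, Junb and Batf3 and stay near the start at Maf.

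**Figure D4:**
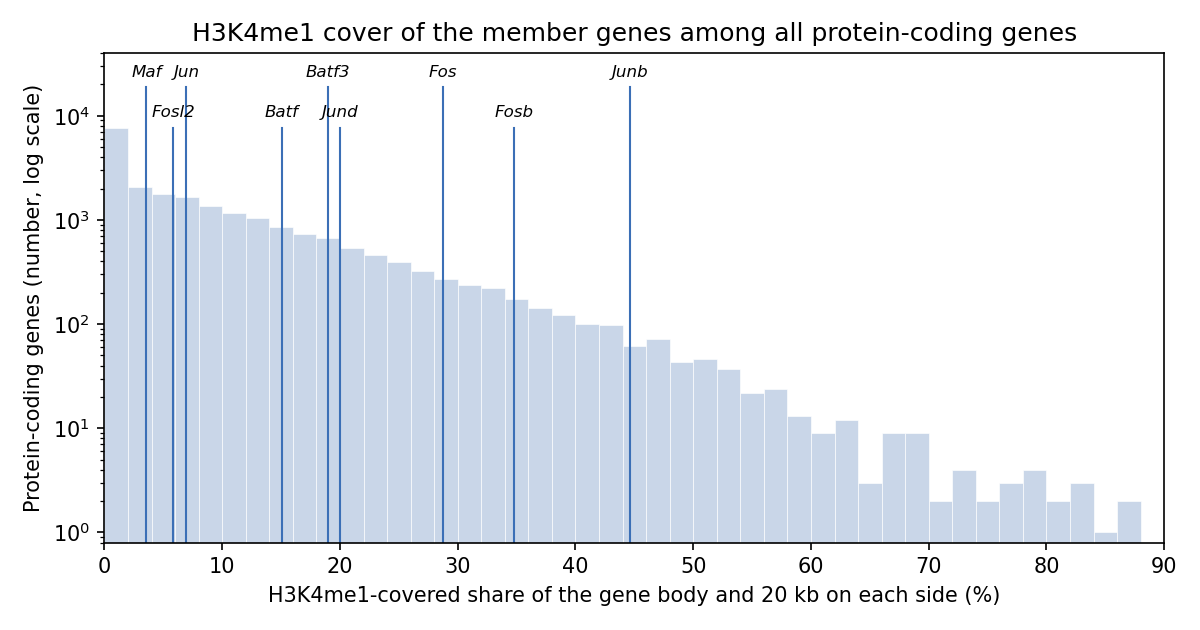
H3K4me1-marked share in percent of the gene body with 20 kb on each side for the 9 genes (vertical lines) and for all 22350 protein-coding genes (bars, number of genes on a log scale). The lines run from 3.56% for Maf to 44.7% for Junb.

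In the Fos family, Fos (chr12:86814840-86818223, plus strand) held 8 marked regions over 12.5 kb (28.7% of its window), a share not exceeded at 92.7% of protein-coding genes. They formed groups 19.3 and 17.3 kb upstream, 5.35 and 1.33 kb upstream, across the start and the coding sequence, and 11.9 to 13.4 kb downstream of the TSS. All 8 were nearer to the Fos TSS than to any other. Fosb (chr7:19888070-19895394, minus strand) held the most regions of the 9 genes, 12 over 16.5 kb (34.8%), with 6 upstream, 3 in the gene and 3 downstream. The upstream ones reached to 16.6 kb before the TSS, where a region of 2999 bp lay. Of the 12, 4 were nearer to the TSS of Gm17589 or Rtn2 than to that of Fosb. Fosl2 (chr5:32438845-32460204, plus strand), which encodes Fra-2, held 4 regions over 3.58 kb (5.84%), a share close to that of the median gene. The upstream pair lay nearer to the TSS of Gm10463, and the other pair lay in Fosl2 introns at 3.06 and 11.9 kb.

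In the Jun family the spread was wider. Junb (chr8:87500811-87502617, minus strand), which encodes a Jun protein with weaker transactivation than Jun itself, held 11 regions over 18.7 kb (44.7%), and 98.4% of protein-coding genes had no larger share. Its gene body, an intronless unit, contained no marked midpoint, with 5 regions upstream and 6 downstream. The TSSs of Rnaseh2a, Prdx2 and Hook2 lie in the same window, and 7 of the 11 regions were nearer to one of them than to Junb. Jun (chr4:94715725-94718913, minus strand) held 4 regions over 3003 bp (6.95%), of 529 to 893 bp, and all 4 were nearer to another annotated TSS (BC042782 or n-R5s189) than to that of Jun. Jund (chr8:73221638-73224515, plus strand) held 6 regions over 8.57 kb (19.99%). The widest, 4084 bp, covered the first Jund TSS, and 3 narrow ones lay 20.9 to 22.8 kb downstream, nearer to Pde4c. Another, 3.70 kb after the TSS, was nearer to Gm11175.

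Among the BATF genes, Batf (chr12:87027619-87050037, plus strand) held 5 regions over 9.41 kb (15.1%), with the pair around the TSS, 2 more in introns and 1 after the gene. The intronic region 18.0 kb after the TSS was 3700 bp wide, wider than or equal to 94.5% of marked regions. That region and the one after the gene were nearer to the TSS of n-R5s64 than to that of Batf. Batf3 (chr1:192922293-192932822, plus strand) held 8 regions over 9.57 kb (18.9%), all nearest to the Batf3 TSS, including 1 of 2838 bp just past the gene end. Maf (chr8:118206842-118231694, minus strand) held 4 regions over 2.31 kb (3.56%), the smallest share of the 9 genes, and all 4 lay within 2 kb of its TSS. None was wider than 693 bp, and 1 of the 4 was nearer to the TSS of Gm15655 than to that of Maf.

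At the gene starts themselves, taken as the outermost annotated TSS, H3K4me1 covered the TSS of Fos and Jund, 2 of 9, beside 17.7% of protein-coding genes. The call for Jund depends on this choice, since its second TSS lay in the unmarked stretch of 2143 bp. For Fosb, Jun, Junb, Batf, Batf3 and Maf the TSS was unmarked with a marked region within 2 kb on both sides, 6 of 9 beside 29.3%. Such a start was not particular to the 9 genes. It was present at 11 of 14 AP-1 partner genes (78.6%) and 11 of 11 genes that activate AP-1, both lists described below. The unmarked gap across the TSS was 144 bp at Batf3, 347 bp at Fosb, 503 bp at Batf, 1021 bp at Maf, 1711 bp at Junb and 1788 bp at Jun. At Fosl2 it was 4308 bp, with the marked region 1531 bp upstream and 2778 bp downstream.

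The 62 marked regions had a median width of 1071 bp (order-statistic interval 844 to 1335 bp, range 374 to 6979 bp), beside 979 bp over all marked regions. By midpoint, 39 lay in intergenic sequence, 13 in introns, 7 in coding sequence and 3 in UTRs. Of the 62, 38 were nearest to a TSS of their own gene and 24 to another. RUNX motifs were present in 50 of 62 (80.6%) beside 81.5% of all marked regions, and ETS motifs in 58 of 62 (93.5%) beside 92.6%. AP-1 motifs, the sites of the factors that these genes encode, were present in 11 of 62 (17.7%, interval 10.2 to 29.0%) beside 21.8%. In the central 200 bp no region of the 62 held an AP-1 motif, with an interval of 0 to 5.83% (3 counts of 62 would be 4.84%), beside 4.0% of all. RUNX motifs were present there in 33.9% beside 32.4%, and ETS motifs in 41.9% beside 50.3%. The RUNX, ETS and AP-1 shares in the 62 regions were thus near those of all marked regions, with intervals that include them. A CRE was present in the central 200 bp of 1 region, upstream of Batf (1.61%, interval 0.285 to 8.59%). The share of all marked regions, 0.189%, lay below that interval, which rests on 1 region. Over whole regions the CRE shares were 1.61 and 1.26%.

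AP-1 and RUNX motifs up to 50 bp apart were found in 2 of the 62 regions (3.23%), beside 4.75% of all marked regions. Together these held 6 such pairs, 5 of them in 1 region upstream of Junb. This region, chr8:87504192-87511170, was the widest of the 62 at 6979 bp and covered intergenic sequence centred 5.06 kb before the Junb TSS. It held 6 AP-1, 21 RUNX and 21 ETS motifs. Of the 2131 marked regions wider than 5 kb, 50 (2.35%) held at least 6 AP-1 motifs and 2 (0.0939%), this one included, held at least 5 pairs. The feature was chosen after its values were seen. No Runx3-bound region overlapped it. The stretches with the pairs are shown on the minus strand, along Junb (chr8:87505208-87505242 and chr8:87509581-87509698), together with the other such stretch, 26.1 kb after the Batf3 TSS (chr1:192948200-192948257, plus strand). Capitals mark AP-1 and RUNX motifs of either strand.
Junb near stretch: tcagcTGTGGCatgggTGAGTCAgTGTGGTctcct
Junb far stretch: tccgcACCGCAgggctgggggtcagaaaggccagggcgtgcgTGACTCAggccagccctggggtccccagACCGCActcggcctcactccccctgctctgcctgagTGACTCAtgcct
Batf3 stretch: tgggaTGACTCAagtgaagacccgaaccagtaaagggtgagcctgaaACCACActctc

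In the near Junb stretch an AP-1 motif lay between RUNX motifs, 5 bp from one and 1 bp from the other. In the far stretch the distances were 21, 30 and 31 bp, and at Batf3 the distance was 35 bp. In the 300 bp before the gene starts, an AP-1 motif was present at none of the 9 genes and at 4.50% of protein-coding genes. RUNX motifs were present there at 5 of 9 (Fosb, Fosl2, Batf, Batf3 and Maf), beside 42.8%, and ETS motifs at 6 of 9, beside 64.1%. A CRE was present before Maf only, beside 2.00%.

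Other genes of the AP-1 network were counted by the same rule, beside the 19.8% of protein-coding genes with a Runx3-bound region. Of 14 genes that encode further leucine zipper partners (Fosl1, Batf2, Jdp2 and members of the ATF, small and large MAF, BACH and NFE2L groups), 3 had a Runx3-bound region (21.4%, interval 7.57 to 47.6%). Bach2, a repressor that competes for AP-1 sites in resting lymphocytes, held 5, all intronic and all marked by H3K4me1. With 70 marked regions, 44.3% of its 387.3 kb window was marked, nearly the share at Junb in a window of 41.8 kb. Mafg, a small MAF protein without a transactivation domain, and Nfe2l2, which encodes the antioxidant response factor Nrf2, held 1 each. All 14 partner genes had H3K4me1, with a median marked share of 20.2%. Of 11 genes whose products activate AP-1 (MAP kinases, their kinases, the ELK factors and Srf), only Elk4, an ETS factor that acts with Srf at immediate early promoters, had Runx3-bound regions. It held 2, at 0.688 and 3.52 kb after its outermost TSS. The first lay 2 bp from another annotated Elk4 TSS and did not overlap H3K4me1, whereas the second overlapped it. The share was 9.09% (interval 1.62 to 37.7%), and the intervals of both lists include the background share. The median marked share was 15.2%.

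The cell type was checked against marker loci, with the limit that H3K4me1 and Runx3 occupancy do not measure expression. All 5 T cell genes (Cd3d, Cd3e, Cd3g, Cd8a, Cd8b1) had Runx3-bound regions and marked shares of 29.4 to 50.4%. Neighbours among them share regions. Of the B cell genes, Cd79a had 2 Runx3-bound regions and a marked share of 41.2%, and Ms4a1 had none and a marked share of 19.9%. The NK cell genes Ncr1 and Klrb1c had none, with marked shares of 0 and 23.5%. Of the myeloid genes Csf1r, Lyz2 and Itgam, 1 of 3 had a Runx3-bound region, with marked shares of 9.40, 0 and 31.2%. Since a B cell gene carried both, and the regions come from pooled cells, a contribution of other cells to the regions at the 9 genes was not tested.

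The margin decides which regions were counted. The marked regions just inside it were at 19.3 and 19.9 kb from Jund and 19.6 kb from Fosb, and those just outside at 20.2 and 20.5 kb from Jund and 20.6 kb from Fos.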

How the data were processed

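ChIP-seq regions of resting splenic CD8-TC were used as deposited. Per the labels and the methods of the study, cells were fixed in 1% formaldehyde, chromatin was sheared to about 300 bp and libraries were sequenced with reads of 40 to 42 bp. The authors aligned reads to mm9 with ELAND (the submitters' processing notes name CASAVA 1.6 and 1.7), kept unique reads, joined repeats, scaled the larger data set to the smaller and called peaks with MACS against NIS. The deposited lists hold chromosome, start and end, without scores or summits. Calling on joined repeats removes the spread between repeats, and unique alignment leaves out repeated sequence.

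The start of each region was increased by 1 bp to give 1-based positions. Regions were joined to genes of GENCODE M1 on NCBIM37, which is mm9, by midpoint with a margin of 20 kb. The TSS of a gene was its outermost annotated start, and distances to other TSSs used all transcripts. All sequences were read from NCBIM37. Motifs were searched on both strands in the whole region, in the central 200 bp and in windows 5 kb away. Overlap needed at least 1 bp. Shares have Wilson intervals. The genes and lists were chosen with earlier results of these data known. Named genes were the 9 genes and any partner or activator gene with a Runx3-bound region. For the 9 genes, any gene with a TSS nearer to one of their regions than their own TSS was also named. The same held for protein-coding genes at their nearest Runx3-bound region. Beyond this rule, genes were named to say what a list holds, and the cell type markers were named as a check. No gene was named for a like pattern, because each antibody has 1 list. Other margins, overlap rules, widths and TSS sets were tried. Functions were tested on simulated regions. Python 3.11.15, numpy 2.4.6, scipy 1.17.1 and matplotlib 3.10.9 were used. The result of 1 marker gene is not reported here.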

Additional observations from a re-analysis of the deposited data

How the results depend on the processing

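Of 61 alternative settings over 14 results, 41 left the value within 1.5 times the reported count or within the interval of the median, and 20 moved it. With margins of 50 and 100 kb the 9 genes held 6 and 7 Runx3-bound regions, at 5 genes in both cases, where 44.1% of protein-coding genes had one at 100 kb. At 0, 5, 50 and 100 kb they held 15, 34, 120 and 200 H3K4me1-marked regions. The median marked share of the 9 windows, 18.9% as reported, was 30.8, 29.0, 12.8 and 13.6% at 0, 5, 50 and 100 kb, within its wide interval of 5.84 to 34.8% although the change exceeded 1.5 times at 0 and 5 kb. The median over protein-coding genes was 4.13, 6.01, 5.96 and 6.27%. Merging neighbours within 1000 bp left 37 marked regions, of 2111 bp at the median, and keeping only regions at or above the median width left 32. The overlap of both Runx3-bound regions with H3K4me1 became 0 when at least 50% cover or a marked midpoint was required, and 1 when regions were set to 200 bp. At 50 kb 6 Runx3-bound regions overlapped H3K4me1, 4 had a RUNX motif and 4 an ETS motif in the central 200 bp. Searching the whole region gave a RUNX motif in 2. Partner genes with a Runx3-bound region numbered 5 at 50 kb and 8 at 100 kb.

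No paired analysis was possible because the calls rest on joined repeats and no result comes from a test over samples. Leaving out a repeat and a stricter calling threshold were not run, as the lists hold neither calls per repeat nor scores. With 9 genes and 2 Runx3-bound regions the intervals are wide. A region absent from a list is one that was not called, which is not evidence of no occupancy.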
